A study of Mus musculus with 8 samples.

Results

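The genes of the sterol regulatory element-binding protein (SREBP) factors and of the machinery that releases them from the membrane were examined in the lactating mammary gland with and without the transcription factor Th-POK. They were taken as 7 genes by name: the factors Srebf1 and Srebf2, the escort Scap, the retention proteins Insig1 and Insig2, and the proteases Mbtps1 and Mbtps2. These are 7 of the 18749 genes named by a probe of the array, and all 7 were among the 14137 genes tested, with 12 probes between them. No. 4 mammary glands came from 4 dams that were wild type (WT) and 4 that were knocked out for Th-POK (KO), all females of the C57/Bl6 strain at lactation day 1. The methods state that the mice were age matched and fed standard rodent chow, and they name no tissue-specific promoter or Cre, so the deletion is that of the knockout line and not of the mammary epithelium alone. RNA of each sample, labelled with Cy3, was hybridized to 1 array of a single-colour Agilent mouse design.

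SREBPs are made as membrane proteins of the endoplasmic reticulum. Scap, which senses sterols, carries them in vesicles to the Golgi when sterols are low, while Insig proteins hold the Scap-SREBP complex back when sterols are high. In the Golgi the site-1 protease (Mbtps1) and then the site-2 protease (Mbtps2) cut the precursor, and the freed factor enters the nucleus and binds sterol regulatory elements of genes of cholesterol and fatty acid synthesis. The mammary gland makes much of the fat of milk from its own newly made fatty acids, and Insig1 and the SREBP genes are themselves known targets of SREBPs.

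Sequences before starts of the paralogue pairs are shown because the pairs differ in the results that follow. For Insig2 and Srebf1 only 1 of 3 starts is shown, and their other starts differ in the motifs they hold, as given below. The printed starts alone are therefore no comparison of the genes. Each is the 250 bases before 1 RefSeq start of the gene in GRCm38.p6, read 5′ to 3′ on the strand of the gene. Capitals mark matches on either strand to TCACNCCA or its shorter form TCACCC, which are cores of the sterol regulatory element, to the E-box CACGTG and to the CCAAT box, which NF-Y binds. TCACNCCA and TCACCC can overlap in the same bases. These motifs were chosen after the sequences had been seen.
Insig1, chr5:28071162-28071411 (+): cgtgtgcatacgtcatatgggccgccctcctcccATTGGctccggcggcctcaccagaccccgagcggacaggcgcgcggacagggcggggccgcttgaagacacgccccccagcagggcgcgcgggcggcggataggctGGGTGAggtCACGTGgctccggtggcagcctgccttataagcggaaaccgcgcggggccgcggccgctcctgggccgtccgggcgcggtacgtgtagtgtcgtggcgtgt
Insig2, start 1 of 3, chr1:121332590-121332839 (-): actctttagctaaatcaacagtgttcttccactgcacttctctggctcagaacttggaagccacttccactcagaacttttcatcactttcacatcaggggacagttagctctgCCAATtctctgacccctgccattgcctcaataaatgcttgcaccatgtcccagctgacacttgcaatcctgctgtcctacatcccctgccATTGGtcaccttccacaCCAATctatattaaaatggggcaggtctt
Srebf1, start 3 of 3, chr11:60210472-60210721 (-): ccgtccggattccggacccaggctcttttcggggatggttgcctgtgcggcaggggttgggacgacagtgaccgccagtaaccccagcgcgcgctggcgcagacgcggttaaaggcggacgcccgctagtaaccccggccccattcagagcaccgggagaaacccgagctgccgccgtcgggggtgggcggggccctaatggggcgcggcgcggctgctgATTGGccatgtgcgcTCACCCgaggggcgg
Srebf2, chr15:82147019-82147268 (+): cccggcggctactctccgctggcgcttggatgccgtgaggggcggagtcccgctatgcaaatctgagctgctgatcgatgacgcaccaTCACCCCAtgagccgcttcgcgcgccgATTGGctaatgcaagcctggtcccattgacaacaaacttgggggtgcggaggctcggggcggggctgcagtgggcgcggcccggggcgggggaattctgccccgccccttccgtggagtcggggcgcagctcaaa

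In Insig1, TCACCC read on the opposite strand lay 110 to 105 bases before the start, CACGTG lay 101 to 96 bases before it, and CCAAT on the opposite strand lay 216 to 212 bases before it. The third start of Srebf1 had TCACCC 15 to 10 bases before it and CCAAT, on the opposite strand, 30 to 26 bases before it. Srebf2 held the longer form, as TCACCCCA, 162 to 155 bases before its start, with CCAAT on the opposite strand 135 to 131 bases before it. The first start of Insig2 had 3 CCAAT boxes and no match to the other motifs, while its other starts had 1 TCACCC each. The first start of Srebf1 had 1 CCAAT box and the second no match. The second of 2 starts of Scap had an E-box, its first start and the starts of Mbtps1 and Mbtps2 had no match. Of 32851 mouse starts with a window of the same length, 3.67% held TCACNCCA, 13.8% TCACCC, 6.02% CACGTG and 33.8% CCAAT, so a match to the last is common. A match is a string of letters and does not show that a factor binds there.

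The arrays and the tissue were checked first. Zbtb7b, which encodes Th-POK, was lower by at least 81.5-fold in KO than in WT glands and was not well above background on any KO array (adjusted p = 5.71e-09, limma with Benjamini-Hochberg adjustment). Between 67.1% and 75.6% of the 43379 spots of an array were well above background and 0 were saturated. Replicates of a genotype correlated at r = 0.974 to 0.992 over the 14137 genes tested, each by its brightest probe. The WT arrays shared 1 slide and the KO arrays a second, so genotype and slide cannot be told apart in any value below. Levels are log2 signals after quantile normalization, differences are KO minus WT on that scale, and a gene was called where its adjusted p over all 14137 genes was under 0.05. The median difference over all genes was -0.02, with the 5th and 95th percentiles at -0.89 and 0.82.

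Srebf1 and Insig1 fell in the KO glands, and the other 5 genes were not called in either direction. The members called lower were 2 of 7, where 8.96% of all genes tested were called lower, and the members called higher were 0 of 7, where 7.53% were. At an unadjusted p under 0.05 the members were 4 of 7 (Srebf1, Insig1, Insig2 and Mbtps1), where 36.3% of all genes passed, and the methods' t-test with Benjamini-Hochberg adjustment also called only Srebf1 and Insig1. In 3 of 7 members (Srebf1, Insig1 and Mbtps1) the genotypes did not overlap, against 24.1% of all genes. The members were named by function and not by their values, but with earlier results of these arrays known.

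**Figure D1:**
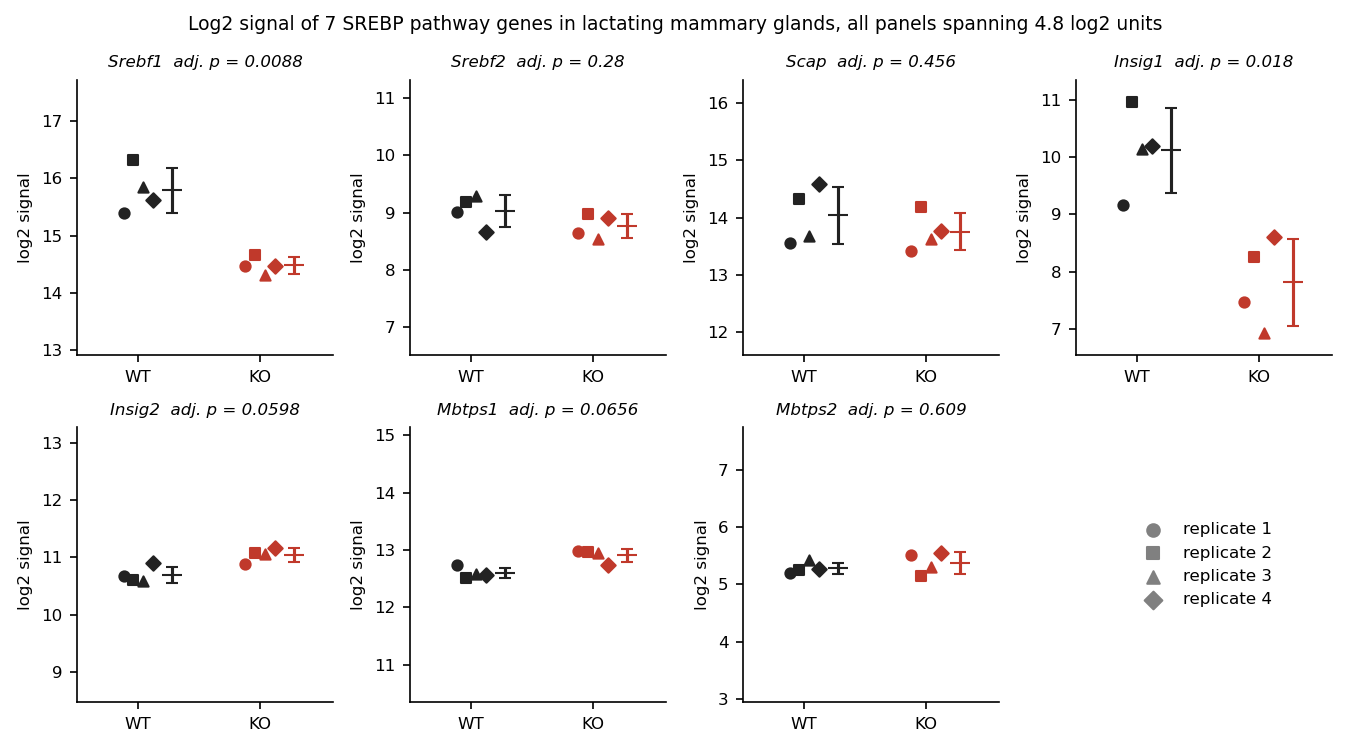
Log2 signal (vertical axis) of each of the 7 genes on the 4 WT (black) and 4 KO (red) arrays. Marker shapes give the replicate number, the bar beside each group is its mean ± SD, and every panel spans the same range of log2 units; the groups stand clear of each other in the panels of Srebf1 and Insig1 and lie close together in those of Srebf2, Scap and Mbtps2.

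Srebf1 encodes SREBP-1, the factor known above all for the genes of fatty acid synthesis. Its log2 signals (probe A_51_P401921) were 15.40, 16.31, 15.85 and 15.62 on the WT arrays and 14.47, 14.66, 14.32 and 14.47 on the KO arrays. Every KO value lay below every WT value, with 0.73 between the nearest. The WT mean was 15.79 ± 0.39 (SD, n = 4) and the KO mean 14.48 ± 0.14 (SD, n = 4), which differ by -1.31 (SE 0.19), or 2.48-fold lower in KO (adjusted p = 0.0088 from limma). Taken by replicate number, the 4 differences were -0.93, -1.65, -1.53 and -1.15, lower in 4 of 4. The WT arrays were spread more widely than the KO arrays, WT replicate 2 being the highest and WT replicate 1 the lowest of them. The sequence of the probe was not used here, so the signal was not assigned to any of the 3 starts. RNA came from the whole gland, where fewer cells of a type and less RNA per cell cannot be told apart.

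Srebf2 encodes SREBP-2, known above all for cholesterol synthesis and uptake. Its brighter probe, A_51_P377508, gave 9.004, 9.18, 9.28 and 8.65 in WT and 8.64, 8.97, 8.54 and 8.90 in KO glands. The groups overlapped, and WT replicate 4 lay among the KO values. The difference was -0.26 (SE 0.16), with a 95% confidence interval from -0.64 to 0.11 and an adjusted p of 0.28 from limma. The dimmer probe, A_52_P302001, was well above background on 4 WT arrays and on 2 of the KO arrays, and gave 5.60, 4.43, 4.78 and 4.54 in WT and 4.33, 3.40, 4.05 and 4.48 in KO glands. Its difference of -0.77 (SE 0.31) had an adjusted p of 0.113 in the limma fit of all probes. Both probes were lower on average, and neither passed the threshold. With their mean in place of the brighter probe the difference was -0.52 (adjusted p = 0.0747 in limma).

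Scap, the escort, did not pass the threshold either. Its signals (probe A_52_P485971) were 13.56, 14.33, 13.69 and 14.58 in WT and 13.42, 14.19, 13.63 and 13.77 in KO glands. Taken by replicate number the differences were -0.14, -0.14, -0.06 and -0.81, lower in 4 of 4, yet the groups overlapped in part. The difference was -0.29 (SE 0.26), with a 95% confidence interval from -0.88 to 0.31 and an adjusted p of 0.456 from limma. It was -0.45 without WT replicate 1, -0.19 without WT replicate 2, -0.11 without WT replicate 4, -0.18 without KO replicate 1 and -0.43 without KO replicate 2, and was not called in any of these.

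Insig1 had the largest difference of the 7 genes. Its probe A_51_P290207 gave 9.16, 10.96, 10.15 and 10.20 on the WT arrays and 7.47, 8.25, 6.93 and 8.61 on the KO arrays. The groups did not overlap, WT replicate 1 and KO replicate 4 being nearest to each other at a distance of 0.55. The WT mean was 10.12 ± 0.74 (SD, n = 4) and the KO mean 7.82 ± 0.76 (SD, n = 4), which differ by -2.30 (SE 0.45), or 4.94-fold lower in KO (adjusted p = 0.018 from limma). Without KO replicate 1 the difference was -2.19 with an adjusted p of 0.0516, and without KO replicate 3 it was -2.01 with an adjusted p of 0.0506, so the call ended when either of these arrays was left out. The second probe, A_52_P393392, gave 8.61, 10.57, 9.29 and 9.91 in WT and 6.997, 7.59, 6.69 and 8.73 in KO glands. There KO replicate 4 lay above WT replicate 1, and the difference was -2.10 (SE 0.52, adjusted p = 0.0327 over all probes in limma). The replicates of Insig1 were spread about as widely in both genotypes, and with both probes WT replicate 2 was the highest and KO replicate 3 the lowest array.

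Insig2, the paralogue that also holds the Scap complex back and is not itself a classical SREBP target, did not follow Insig1. Its probe A_51_P439452 gave 10.67, 10.60, 10.58 and 10.89 in WT and 10.88, 11.08, 11.05 and 11.16 in KO glands. KO replicate 1 lay just below WT replicate 4, and the other KO arrays were above all WT arrays. The difference was 0.35 (SE 0.11), with a 95% confidence interval from 0.10 to 0.61 and an adjusted p of 0.0598 from limma. The probe A_52_P113250, which matches another transcript record of the gene, gave 9.20, 9.30, 9.21 and 9.42 in WT and 9.73, 9.64, 9.58 and 9.76 in KO glands. With this probe the groups did not overlap, and the difference of 0.39 (SE 0.10) passed the threshold over all probes (adjusted p = 0.0373 in limma). Whether Insig2 was called thus depended on the probe, while its direction was the same with both. Taken by replicate number, an uncertain pairing, the brighter probe was higher in 4 of 4.

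Mbtps1, the site-1 protease, was measured by 3 probes. The brightest, A_51_P382588, gave 12.73, 12.51, 12.59 and 12.57 in WT and 12.97, 12.96, 12.94 and 12.74 in KO glands. Its groups did not overlap, but WT replicate 1 and KO replicate 4 were only 0.013 apart. The difference was 0.31 (SE 0.10), with a 95% confidence interval from 0.08 to 0.53 and an adjusted p of 0.0656 from limma. The other probes, A_52_P589065 and A_52_P406482, had differences of 0.24 (SE 0.16) and 0.09 (SE 0.12), and in both the groups overlapped. Mbtps2, the site-2 protease, had signals of 5.20, 5.24, 5.42 and 5.26 in WT and 5.51, 5.14, 5.31 and 5.54 in KO glands (probe A_52_P530405). Its groups overlapped, the pairs were split 2 to 2 between directions, and the difference was 0.09 (SE 0.12) with a 95% confidence interval from -0.18 to 0.36 and an adjusted p of 0.609 from limma.

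**Figure D2:**
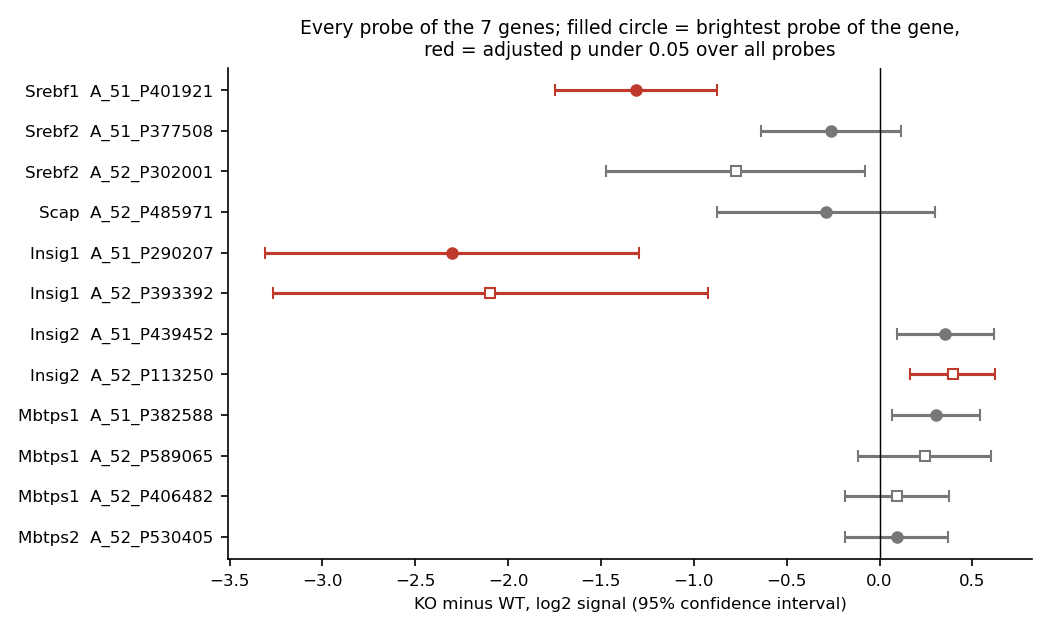
KO minus WT difference in log2 signal (horizontal axis) with its 95% confidence interval for each of the 12 probes, from the limma fit of all probes. Filled circles are the brightest probe of a gene, open squares its other probes, and red marks an adjusted p under 0.05; 3 probes called lower (Srebf1 and both of Insig1) stand left of 0 and 1 called higher (the second of Insig2) stands right of it.

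In the fit of all probes, 3 of the 12 member probes were called lower and 1 was called higher, where 7.17% and 7.3% of all 27654 probes were called in these directions. In the 4 genes with more than 1 probe (Srebf2, Insig1, Insig2 and Mbtps1), the probes of a gene had differences of the same sign.

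A call in 1 gene and none in its partner does not show that the partners differ, so the difference between 2 genes on the same array was set against genotype in a two-sided exact permutation test, for 4 pairs of genes and adjusted over the 4. Since probes differ in brightness for reasons other than the amount of RNA, only the shift between genotypes is of use. Insig1 minus Insig2 was -1.51, 0.36, -0.43 and -0.69 on the WT arrays and -3.41, -2.82, -4.12 and -2.55 on the KO arrays. The shift was -2.66 (exact p = 0.0286, adjusted p = 0.0381), and 0.0286 is the smallest p that the 70 relabelings of the arrays can give. Srebf1 minus Srebf2 was 6.39, 7.14, 6.57 and 6.97 in WT and 5.82, 5.69, 5.77 and 5.57 in KO glands, a shift of -1.05 (exact permutation, adjusted p = 0.0381). With the brightest probe of each gene and the arrays unpaired, both paralogue pairs thus shifted between genotypes. The genes were chosen with earlier results of these arrays known, and other settings, given below, did not pass. Scap minus Insig1 shifted by 2.02, from 4.40, 3.37, 3.54 and 4.38 in WT to 5.95, 5.94, 6.70 and 5.16 in KO glands (exact permutation, adjusted p = 0.0381). Mbtps1 minus Mbtps2 was 7.53, 7.26, 7.17 and 7.30 in WT and 7.47, 7.82, 7.64 and 7.20 in KO glands, and the shift of 0.21 did not pass (exact permutation p = 0.229, adjusted p = 0.229). With the mean of all probes of each gene in place of the brightest, the shift was -2.57 for Insig1 minus Insig2 (adjusted p = 0.0571), -0.80 for Srebf1 minus Srebf2 (adjusted p = 0.0762) and 1.91 for Scap minus Insig1 (adjusted p = 0.0571), all by the exact permutation test. The p before adjustment stayed at 0.0286 for Insig1 minus Insig2 and for Scap minus Insig1, and was 0.0571 for Srebf1 minus Srebf2, so only the last was weaker before the adjustment over the 4 pairs. Paired by replicate number, the same shifts could not give an exact p under 0.125.

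**Figure D3:**
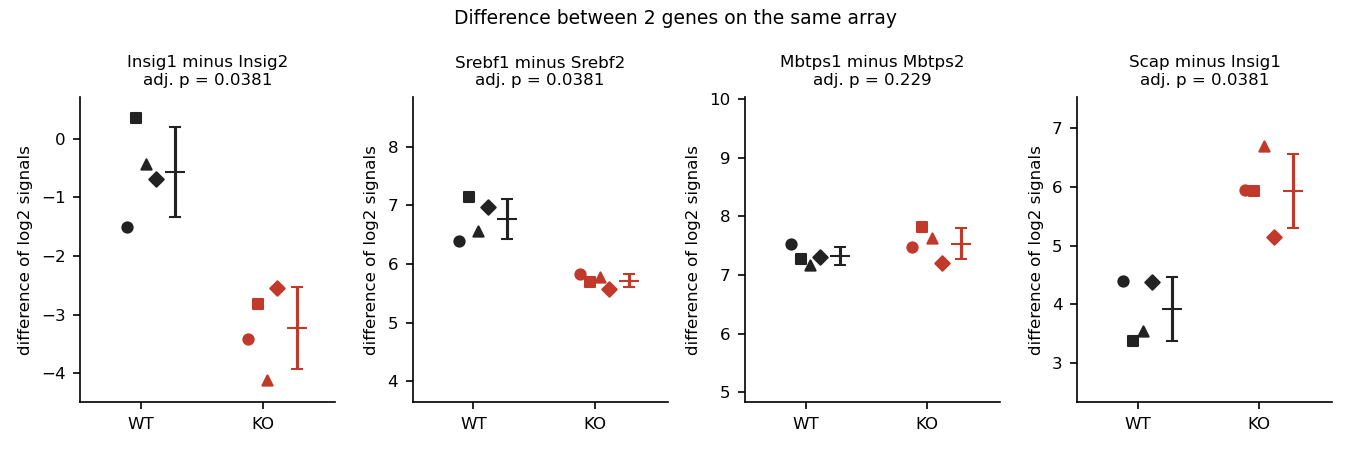
Difference between the log2 signals of 2 genes on the same array (vertical axis) for 4 pairs of genes, on the 4 WT (black) and 4 KO (red) arrays, with marker shapes for the replicate number and the mean ± SD beside each group. The WT and KO points are apart for Insig1 minus Insig2, Srebf1 minus Srebf2 and Scap minus Insig1, and overlap for Mbtps1 minus Mbtps2.

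Lists of other genes of the pathway, written by function, were read in the same fit. The COPII coat forms the vesicles that carry the Scap-SREBP complex, with other cargo, out of the endoplasmic reticulum. Of its 10 genes, 4 were called lower and 1 higher, where 8.96% and 7.53% of all genes were. The median difference was -0.30, and 7 had genotypes that did not overlap, against 24.1% of all genes. Sec24d, a cargo-binding subunit, fell by 0.76 (SE 0.13, adjusted p = 0.0138 in limma). Sec23b, of the inner coat, fell by 0.97 (SE 0.19, adjusted p = 0.0183 in limma). Sec24b, another cargo-binding subunit, rose by 0.52 (SE 0.11, adjusted p = 0.0212 in limma), so the subunits did not all move one way. The number called in this list was 2 without WT replicate 2, 2 without WT replicate 3, 1 without KO replicate 1, 3 without KO replicate 2 and 1 without KO replicate 3.

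Of 11 tested genes for the sterol-regulated retention of the complex and the degradation of its parts, 0 were called, and the methods' t-test called 1. Over all genes, 8.96% were called lower and 7.53% higher. An unadjusted p under 0.05 in limma was found in 5 of the 11, where 36.3% of all genes had one. The median difference was 0.06. Rnf139, a ubiquitin ligase of the endoplasmic reticulum, had a difference of 0.32 (SE 0.09, adjusted p = 0.0508 in limma). Ube2g2, a ubiquitin-conjugating enzyme, had one of -0.47 (SE 0.14, adjusted p = 0.0561 in limma), and Vcp, which extracts proteins from that membrane, one of -0.37 (SE 0.12, adjusted p = 0.0602 in limma). Without WT replicate 1 or without WT replicate 4, 1 gene of this list was called.

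Site-1 protease also cuts other membrane proteins. Of 8 tested genes encoding such substrates 2 were called lower and 1 higher (median difference -0.36). Over all genes, 8.96% were called lower and 7.53% higher. Creb3l1, a membrane-bound transcription factor, fell by 0.88 (SE 0.17, adjusted p = 0.0183 in limma). Its relative Creb3l4 rose by 1.05 (SE 0.24, adjusted p = 0.0247 in limma), and Atf6b, of the unfolded protein response, fell by 0.67 (SE 0.17, adjusted p = 0.0348 in limma). The number called was 1 without WT replicate 2, WT replicate 3, KO replicate 1 or KO replicate 2, and 0 without KO replicate 3.

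Of 10 genes for the nuclear partners and turnover of SREBPs, 2 were called lower and 1 higher (median difference 0.08). Over all genes, 8.96% were called lower and 7.53% higher. Nfyc, a subunit of NF-Y, fell by 0.54 (SE 0.12, adjusted p = 0.0236 in limma). Fbxw7, the ubiquitin ligase subunit that targets nuclear SREBPs for degradation, rose by 0.47 (SE 0.13, adjusted p = 0.0396 in limma). Lpin1, a phosphatidate phosphatase that also acts on nuclear SREBP, fell by 1.18 (SE 0.34, adjusted p = 0.0483 in limma), with genotypes that overlapped. No gene of this list was called without WT replicate 2, WT replicate 3, KO replicate 1 or KO replicate 3, and 1 was without KO replicate 2.

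The targets of SREBPs were lower in nearly every case on average. Among 23 genes of sterol synthesis and uptake, 9 were called lower and 0 higher, where 8.96% and 7.53% of all genes were. All 23 had a mean below WT, and the median difference was -1.33. Mvd, which makes isopentenyl diphosphate, fell by 1.74 (SE 0.25, adjusted p = 0.0087 in limma). Sqle, the squalene epoxidase, fell by 1.85 (SE 0.36, adjusted p = 0.0182 in limma), and Stard4, a sterol carrier, fell by 1.45 (SE 0.30, adjusted p = 0.0204 in limma). With the replicate number as a block 18 of the 23 were called, and the number was 2 without WT replicate 2, 2 without WT replicate 3, 3 without KO replicate 1, 4 without KO replicate 2, 1 without KO replicate 3 and 18 without KO replicate 4. Among 17 fatty acid targets of SREBPs, not all of them enzymes of fatty acid synthesis, 16 had a mean below WT and the median difference was -0.97. Only 1 was called lower and 0 had genotypes that did not overlap, where the shares of all genes were 8.96% and 24.1%. Acacb, an acetyl-CoA carboxylase, fell by 1.85 (SE 0.51, adjusted p = 0.0428 in limma). Scd2, a fatty acid desaturase, had a difference of -2.18 (SE 0.70) and Aacs, an acetoacetyl-CoA synthetase, one of -1.19 (SE 0.38), both with an adjusted p of 0.0635 in limma. With the replicate number as a block 11 of the 17 were called, 5 without WT replicate 1 or KO replicate 4, and 0 without WT replicate 2, WT replicate 3, WT replicate 4, KO replicate 1 or KO replicate 3. Insig1 and Srebf1 fell by amounts within the range of these lists, whose members come from the same arrays.

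Of 14 tested genes of the liver X receptor and insulin inputs to Srebf1, 1 was called lower and 1 higher (median difference -0.03). Over all genes, 8.96% were called lower and 7.53% higher. Akt1, a kinase of insulin signalling, fell by 0.73 (SE 0.15, adjusted p = 0.0206 in limma). Nr1h3, which encodes the liver X receptor alpha that activates Srebf1 transcription, rose by 0.68 (SE 0.15, adjusted p = 0.0251 in limma). Rps6kb1, a kinase downstream of mTOR, had a difference of -0.39 (SE 0.14, adjusted p = 0.0789 in limma). Rptor, a subunit of mTOR complex 1 that was named after its values were seen, had a difference of -2.40 with an SD of 4.39 among the KO arrays against 0.15 among the WT arrays, and was not called (adjusted p = 0.376 in limma). The number called was 0 without WT replicate 2, KO replicate 1 or KO replicate 3, and 1 without WT replicate 3 or KO replicate 2.

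**Figure D4:**
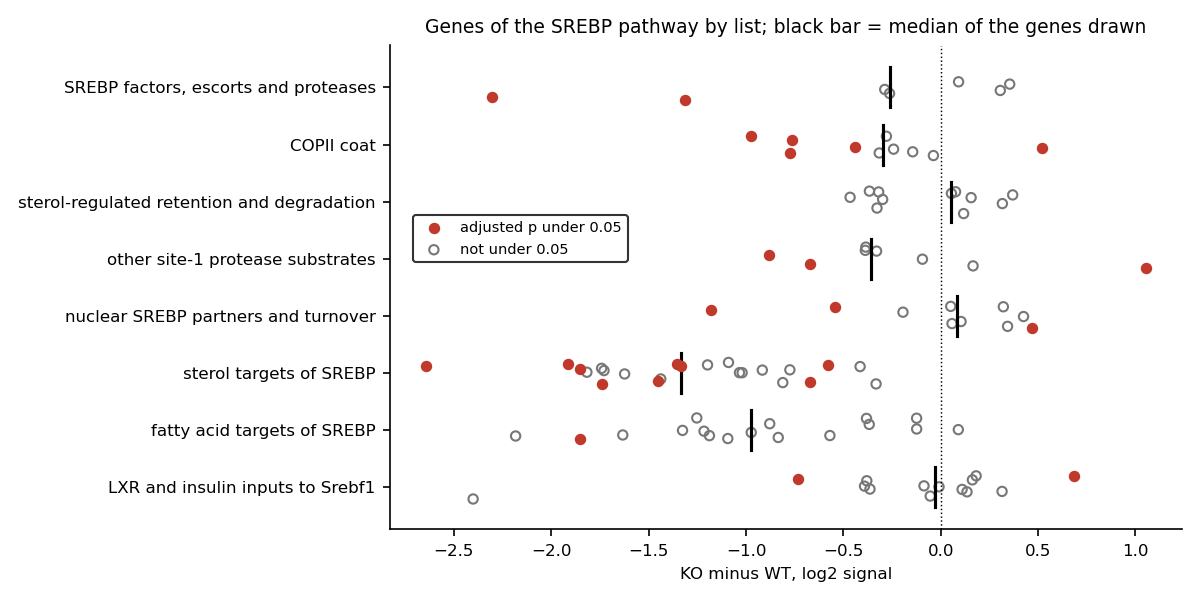
KO minus WT difference in log2 signal (horizontal axis) of every tested gene of the 7 members and the 7 pathway lists (rows). Red points have an adjusted p under 0.05, open points do not, and black bars are medians; all 23 sterol targets lie left of 0, while the points of the retention list lie on both sides of it.

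Genes that mark the cells of the gland were set beside these values. Of 10 luminal epithelium markers 4 were called higher in the KO glands (Cdh1, Cldn3, Krt18 and Epcam), and the list mean ran from 13.35 to 13.83 in WT and from 13.95 to 14.12 in KO glands. All 10, keratins included, were well above background. Of 10 adipocyte markers 2 were called higher (Cfd and Plin1), with a list mean from 12.71 to 13.27 in WT and from 13.29 to 13.50 in KO glands. The other 6 luminal markers were not called and ranged from -0.35 (Elf5) to 0.49 (Gata3), and the other 8 adipocyte markers from -0.73 (Lep) to 0.60 (Cidec), with 7.53% of all genes called higher. Of 6 tested neutrophil markers 3 were called higher (Ngp, Camp and Ltf), with a list mean from 7.61 to 8.29 in WT and from 9.74 to 10.81 in KO glands. Ngp and Camp had WT means of 2.46 and 1.95. The lowest signals well above background on the KO arrays averaged 3.82. Both may thus have passed the filter through the KO arrays alone, and the list mean depends on them. Ltf had a WT mean of 16.27, against 10.83 for S100a8 and 10.61 for S100a9. Whether the Ltf signal came from neutrophils or from other cells of the gland was not tested. The uncalled S100a8, S100a9 and Mpo had differences of 0.49, 2.19 and 0.24. Of 8 T cell markers 2 were called lower (Cd3e and Cd4), with a list mean from 6.11 to 7.23 in WT and from 6.17 to 6.40 in KO glands. Over all genes, 8.96% were called lower. Of 4 tested B cell markers and of 8 fibroblast markers 1 each was called higher (Cd79b and Dcn). The fibroblast list mean ran from 13.28 to 13.61 in WT and from 13.59 to 14.12 in KO glands. Limma called 0 of the myoepithelium, macrophage and endothelium markers, of which 1 of 8, 0 of 7 and 2 of 7 had an unadjusted p under 0.05. That share over all genes was 36.3%. In the other lists it held for 7 of 10 luminal, 4 of 10 adipocyte and 4 of 6 neutrophil markers. It also held for 2 of 8 T cell, 2 of 4 B cell and 6 of 8 fibroblast markers. The part of these cells in the values of the SREBP genes was not tested.

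Likeness between genes was described by Pearson's r over the 8 arrays after the mean of each genotype was taken away, with no test, since all points share the arrays and their normalization. For Srebf1 and for Insig1 the 5 highest of 14136 values of r are named. Picking the highest of so many over 8 arrays yields high values in itself, so no relation is read from them. The genes most like Srebf1 were Mrps27 (r = 0.981), Entpd4 (r = 0.971), Ptn (r = 0.971), Rnf157 (r = 0.970) and Col22a1 (r = 0.969). Of these, Mrps27, of the small subunit of the mitochondrial ribosome, was also called lower in the KO glands (difference -0.70, SE 0.12, adjusted p = 0.0133 in limma). The genes most like Insig1 were Aoah (r = 0.984), Otof (r = 0.981), Pgm3 (r = 0.975), Itsn1 (r = 0.971) and Emx1 (r = 0.971), none of which was called lower or higher, with adjusted p from 0.0513 (Pgm3) to 0.497 (Aoah) in limma. Between the members themselves, r was highest for Srebf1 and Insig1 (0.775) and lowest for Insig1 and Mbtps1 (-0.809). Insig1 stood only at rank 401 of 14136 genes in likeness to Srebf1.

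**Figure D5:**
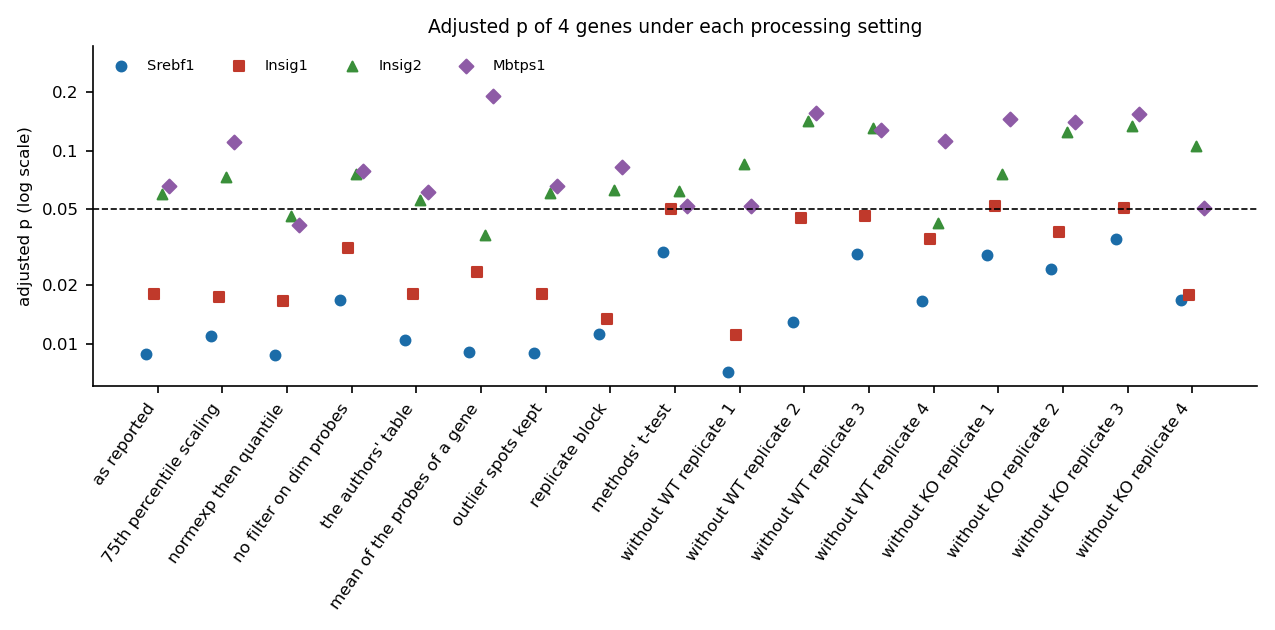
Adjusted p (vertical axis, log scale) of Srebf1, Insig1, Insig2 and Mbtps1 as reported and under each of 16 other settings (horizontal axis), with the threshold of 0.05 as a broken line. Srebf1 lies below the line throughout, Insig1 crosses it without KO replicate 1 and without KO replicate 3, and Insig2 and Mbtps1 lie above it in most settings.

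Srebf1 kept its call under all 16 other settings tried, with adjusted p from 0.00714 to 0.0349, and its difference ran from -1.45 to -1.14. Insig1 kept its call under 14 of the 16. Insig2 passed the threshold under 3 of them and Mbtps1 under 1. The replicate number as a block changed the call of none of the 7 genes.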

How the data were processed

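Per the labels, No. 4 mammary gland RNA of 4 WT and 4 KO dams at lactation day 1 was hybridized to single-colour arrays, and genotype and replicate number were read from the sample titles and characteristics. For each array the authors deposited the scanner output of Agilent Feature Extraction (10.7.3.1 in the file headers), whose processed intensity is background-subtracted and detrended, with no normalization across arrays. A series table of log2 values was deposited too, quantile-normalized in GeneSpring per the methods, which was used as an alternative. Against the scanner intensity of the same array, on the log2 scale, its columns had r = 0.9985 to 0.9999 and they had medians of 6.324 to 6.325.

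Processed intensities of non-control spots were quantile-normalized on the log2 scale in R 4.3.3 (limma 3.58.1). Outlier spots (64 to 100 per array) were dropped and spots of a probe averaged (41174 probes). Probes were named by accession through a RefSeq table of GRCm38.p6 (27479 probes, 18749 symbols), while the array design names build mm9. Probes were kept (27735) if all 4 arrays of either genotype showed them well above background, and the brightest stood for its gene. Genes were tested with lmFit and eBayes with Benjamini-Hochberg adjustment, at a threshold of 0.05. The script was tested on simulated data. For Zbtb7b the fold is a lower limit, the WT mean against, per KO array, the lowest signal well above background or that of the probe, whichever was higher. The number of arrays limits the precision.

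The named genes are the 7 members and, for each pathway list, the 3 with the smallest p; called markers and the genes of closest pattern are named too. Members and lists were chosen with earlier results of these data known. Deviations from the genotype means correlated between arrays of the same replicate number at r = 0.219, 0.165, 0.304 and 0.283. All exceeded 0.1, so the numbers were used as a block in an alternative. The reported fits and permutation tests left the samples unpaired. Arrays of different numbers ran from -0.323 to 0.34, and WT replicate 3 with KO replicate 1 (0.34), WT replicate 1 with KO replicate 3 (0.264) and WT replicate 4 with KO replicate 2 (0.24) correlated about as highly, so the pairing is uncertain; the methods speak of independent sets of replicates without saying what a set shares. Alternatives were scaling to the 75th percentile, normexp, no filter on dim probes, the authors' table, the mean of a gene's probes, outlier spots kept, the replicate block, the methods' t-test and each array left out in turn. The normexp alternative used the median foreground signal.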

Additional observations from a re-analysis of the deposited data

Results flagged for a closer look

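Among 24 groups of 4 arrays (12 probes in 2 genotypes), 2 held an array far from the other 3 by Dixon's ratio of gap to range at the 95% level; chance gives this in about 1 of 20 groups. The brightest probe of Mbtps1, A_51_P382588, was at 12.7437 on KO replicate 4, where the other KO arrays lay between 12.9437 and 12.9748. The Mbtps1 probe A_52_P406482 was at 6.5905 on WT replicate 2, where the other WT arrays lay between 6.9692 and 7.0045.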

How the results depend on the processing

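No result tried here reversed its direction. Leaving out 1 array at a time, the difference of Insig1 ran from -2.62 to -2.01, of Srebf2 from -0.39 to -0.18, of Scap from -0.45 to -0.11, of Mbtps2 from 0.04 to 0.17, of Insig2 from 0.32 to 0.42 and of Mbtps1 from 0.28 to 0.36, and 1 to 3 members were called. Insig2 passed the threshold with normexp (0.35, adjusted p = 0.0457 in limma), with its probes averaged (0.37, adjusted p = 0.0364) and without WT replicate 4 (0.42, adjusted p = 0.042). Mbtps1 passed it with normexp (0.34, adjusted p = 0.0411), so that 4 members were called there. Over its alternatives the adjusted p ran from 0.0364 to 0.142 for Insig2 and from 0.0411 to 0.191 for Mbtps1.

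Called genes of a list also moved, with the cause not tested. In the retention list 1 gene was called with the 75th percentile, the authors' table, the mean of probes or the methods' t-test. Of the site-1 protease substrates 1 was called with the methods' t-test, and of the nuclear partners 1 with no filter on dim probes or with the mean of probes. Of the sterol targets 2 were called with the methods' t-test, and of the fatty acid targets 0 with no filter or with that test. Leaving out 1 array, calls ran from 1 to 5 for the COPII coat, 0 to 1 for retention, 0 to 4 for the substrates, 0 to 3 for the nuclear partners, 1 to 18 for the sterol targets, 0 to 5 for the fatty acid targets and 0 to 3 for the inputs to Srebf1. Over all genes 2331 were called as reported, 1389 with the methods' t-test and between 515 (without KO replicate 3) and 3070 (without WT replicate 1) with 1 array left out.

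With the mean of probes the shift was -2.57 for Insig1 minus Insig2, -0.80 for Srebf1 minus Srebf2 and 1.91 for Scap minus Insig1. With the replicate block, pairing the arrays, the calls of sterol targets became 18 and of fatty acid targets 11, and the shifts of -2.66, -1.05 and 2.02 had an adjusted p of 0.167 in the exact test, which 4 pairs cannot bring under 0.125 before adjustment; the block changed no other call of a member. Quantile normalization sets all arrays to 1 distribution, dim probes such as those of Mbtps2 and the second of Srebf2 lie nearest to background, and slide and genotype remain inseparable.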
